A study of Mus musculus with 20 samples.

Results

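Acute phase protein genes encode plasma proteins that hepatocytes make in changed amounts when tissue is injured or inflamed. The 10 described here were chosen by name: Saa1, Saa2, Saa3, Lcn2, Orm1, Orm2, Hp, Apcs, Fgb and Hpx. All 10 were found by Ensembl identifier, through the symbols of GENCODE release M21, among the 46603 identifiers of the count files, and all 10 were among the 14661 genes that passed the filter on low counts. Their level was measured by sequencing of poly(A) RNA in 20 liver libraries from male mice aged 2 months on a chow diet.

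Wild type (WT) mice were C57BL/6J animals from The Jackson Laboratory. The knockout (KO, EedHepKO) mice came from a cross, then inbred, of Alb:Cre mice, in which the albumin promoter drives Cre, with Eedflox mice, whose loxP sites flank exons 3 and 6 of Eed. The labels give both genotypes the strain C57BL6/J. Animals with Alb:Cre or the floxed allele alone were not analysed here, so the loss of Eed cannot be told apart from the Cre transgene or the colony. The baseline samples of each genotype are lobes 1, 2 and 3, cut out during partial hepatectomy (PHx). The samples after PHx are lobes 4, 5 and 6, which the surgery left in place, and each of the 4 groups holds 5 libraries. The livers after PHx were taken at 30 h (WT mouse 1 and KO mouse 12), 40 h (WT mice 2 and 3, KO mice 10 and 11) or 48 h (WT mice 4 and 5, KO mice 7 and 8). Libraries are named by the mouse numbers in their titles, and the WT baseline library whose title has none is called mouse 1. All livers after PHx had the surgery, so surgery, regrowth, elapsed time and lobe cannot be told apart in that comparison.

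The acute phase response is driven in hepatocytes mainly by cytokines of the interleukin-6 family, which signal through gp130 (Il6st), JAK kinases and STAT3, and by interleukin-1 and TNF, which act through NF-kB. C/EBP factors bind many of the target promoters. EED is a core subunit of polycomb repressive complex 2 (PRC2), which methylates lysine 27 of histone H3 at silenced genes.

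Library totals ran from 21634890 to 30461351 counts. Values are CPM, counts per 1000000 of the library total after scaling by TMM, a method that assumes that most genes do not change. With library size alone as the scale, the median log2 difference of all genes was 0.29 to 0.59 in the comparisons between 2 groups, in place of -0.03 to 0.14, so the changes below are relative to most genes. Eed, the deleted gene, was at 15.3 to 18.4 CPM in WT at baseline, 14.6 to 23.2 in WT after PHx, 3.83 to 7.52 in KO at baseline and 2.74 to 5.82 in KO after PHx. The groups of different genotype did not overlap. Markers of hepatocytes were abundant in every library, with summed levels of the 10 markers from 39555 to 154888 CPM.

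Some promoters of these genes carry short motifs named after the factors above. The table of RefSeq promoters (GRCm38.p6, the assembly of mm10) held 8 of the 10 genes, and Orm1 and Hp had no entry. The sequences below are those of 4 genes whose response to PHx differed between genotypes, followed by Fgb, whose response did not pass that test. Each is given 5′ to 3′ on the strand of its gene, over the 250 bases before the RefSeq start (for Saa2 the 207 of these that lie before the GENCODE gene). Capitals mark every match to TTGCNNAA (C/EBP), TTCNNNGAA (STAT), CTGGGAA (interleukin-6 response element) or the NF-kB motif, searched on both strands. The windows are chr7:46742981-46743230 for Saa1, chr7:46751583-46751789 for Saa2, chr4:63362199-63362448 for Orm2, chr1:172895055-172895304 for Apcs and chr3:83049864-83050113 for Fgb, with Saa1, Apcs and Fgb on the minus strand and Saa2 and Orm2 on the plus strand.
Saa1: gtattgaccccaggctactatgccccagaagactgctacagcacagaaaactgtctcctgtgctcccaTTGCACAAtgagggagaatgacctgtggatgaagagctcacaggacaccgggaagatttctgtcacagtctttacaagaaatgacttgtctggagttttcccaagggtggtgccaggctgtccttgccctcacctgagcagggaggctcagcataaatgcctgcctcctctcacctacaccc
Saa2: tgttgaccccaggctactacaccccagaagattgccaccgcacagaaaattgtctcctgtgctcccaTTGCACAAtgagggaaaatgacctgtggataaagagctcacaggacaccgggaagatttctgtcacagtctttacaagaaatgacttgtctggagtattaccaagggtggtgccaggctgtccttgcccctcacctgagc
Orm2: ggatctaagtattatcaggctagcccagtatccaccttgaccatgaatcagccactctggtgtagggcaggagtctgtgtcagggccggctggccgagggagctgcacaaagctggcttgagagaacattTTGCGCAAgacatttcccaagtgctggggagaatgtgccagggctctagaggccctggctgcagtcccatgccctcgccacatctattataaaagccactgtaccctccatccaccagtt
Apcs: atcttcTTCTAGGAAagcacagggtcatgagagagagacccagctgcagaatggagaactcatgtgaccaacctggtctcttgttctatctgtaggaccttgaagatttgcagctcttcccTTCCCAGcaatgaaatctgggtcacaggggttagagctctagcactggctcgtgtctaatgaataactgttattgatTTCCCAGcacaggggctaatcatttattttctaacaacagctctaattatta
Fgb: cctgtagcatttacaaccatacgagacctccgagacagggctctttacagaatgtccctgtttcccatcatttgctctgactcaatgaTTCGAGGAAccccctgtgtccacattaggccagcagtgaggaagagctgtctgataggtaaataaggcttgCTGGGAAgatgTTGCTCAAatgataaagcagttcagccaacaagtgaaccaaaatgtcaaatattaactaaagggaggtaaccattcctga
The C/EBP motif was found in 7 of the 8 windows of 250 bases, all but that of Apcs, against 9.56% of 32851 RefSeq windows of the same length. The Lcn2 window lies within its GENCODE gene. For Saa3, 226 of the 250 bases lie before the GENCODE gene, and for Hpx 229. In Saa1 the C/EBP motif began 182 bases before the start and in Saa2 183. Both had the same 8 bases, TTGCACAA, and the windows of these neighbouring genes were 94.8% identical. The STAT motif was found in Apcs and Fgb (7.02% of all windows), as was the interleukin-6 response element (9.10%), which Apcs held at 129 and at 52 bases before its start. The NF-kB motif was found in 0 of the 8 windows (1.41% of all). A match is a description of the letters, not a bound site.

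**Figure D1:**
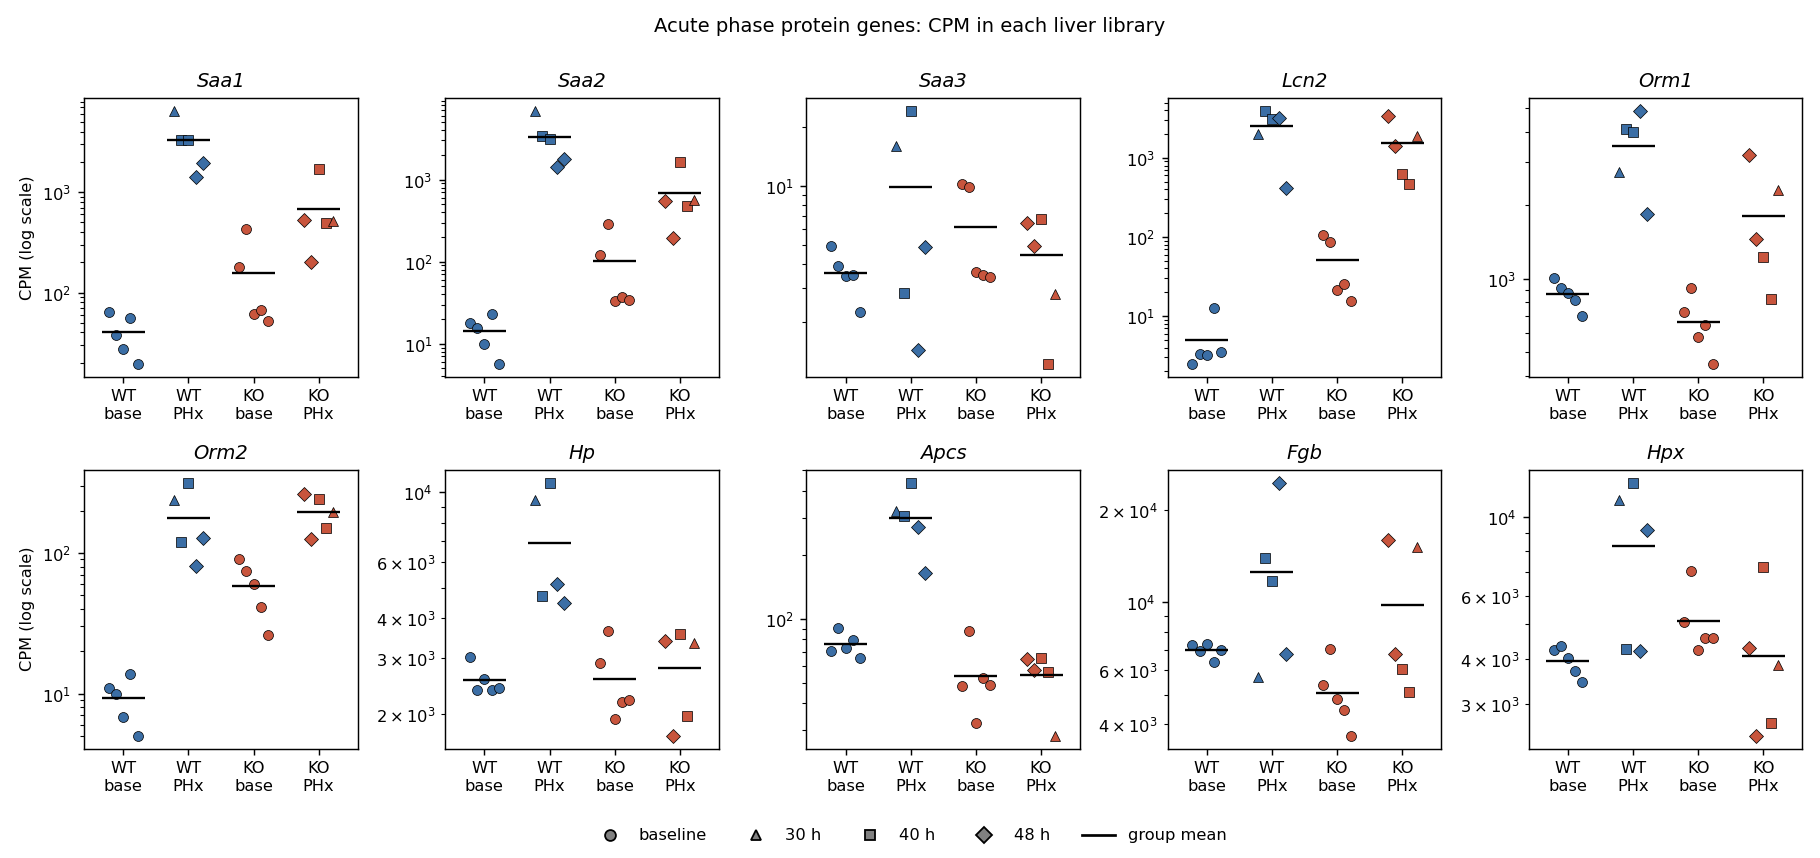
CPM of the 10 genes (log axis, a scale of its own for each gene) in each of the 20 liver libraries, by genotype and stage. Each point is a library, its shape gives the time after PHx, and the black line is the mean of the 5 libraries. The means of Saa1, Saa2, Lcn2 and Orm2 in WT after PHx are more than 10 times those at baseline, while Apcs lies above its baseline range in all 5 WT livers after PHx and in none of the KO livers.

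Before surgery, 4 of the 10 genes were higher in KO than in WT liver at an adjusted p under 0.05 (edgeR quasi-likelihood test, Benjamini-Hochberg over all genes) and none was lower (0 also at an unadjusted p under 0.05 and with DESeq2). Over all genes tested, 11.1% were called higher in KO in this comparison. The genes called were Saa1, Saa2, Lcn2 and Orm2, while Orm1, Hp, Apcs, Fgb, Hpx and Saa3 were not. The median log2 difference of the 10 was 0.57, beside -0.03 for all genes.

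Saa1 and Saa2 encode the serum amyloid A apolipoproteins carried on high-density lipoprotein during the acute phase. They lie head to head on chromosome 7 in mm10, at 46740497 to 46742980 on the minus strand (Saa1) and 46751790 to 46754313 on the plus strand (Saa2), with 8809 bases between them. Saa1 was at 63.7, 37.5, 27.2, 55.2 and 19.3 CPM in WT mice 1 to 5 at baseline, and at 179.3, 427.6, 60.9, 66.9 and 51.8 CPM in KO mice 7, 8, 10, 11 and 12. KO mice 7 and 8 stood above the rest, KO mouse 11 was just above the WT maximum, and KO mice 10 and 12 lay within the WT range. The log2 fold change was 1.96 ± 0.62 (SE, adjusted p = 0.0374). It lost the call without WT mouse 2, 3, 4 or 5 or KO mouse 7 or 8, with a lowest value of 1.15 (adjusted p = 0.173) without KO mouse 8.

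Saa2 was at 5.64 to 22.8 CPM in the WT libraries and at 120.1, 287.5, 33.4, 37.1 and 34.6 CPM in KO mice 7, 8, 10, 11 and 12. The groups did not overlap, which held in this direction for 15.6% of all genes, and the log2 fold change was 2.84 ± 0.67 (adjusted p = 0.00668). KO mice 7 and 8 were again the highest. The transcripts of Saa1 and Saa2 are 87.3% identical with a longest shared run of 76 bases, and the counts hold uniquely mapped reads only, so the split of reads between the pair is uncertain.

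Lcn2 encodes lipocalin-2, which binds bacterial siderophores and so withholds iron. The gene lies on chromosome 2, at 32384633 to 32388252 on the minus strand. WT mice 1, 2, 3 and 5 had 2.47 to 3.53 CPM at baseline and WT mouse 4 had 12.7, while KO mice 7, 8, 10, 11 and 12 had 106.9, 86.4, 21.7, 25.1 and 15.6 CPM. All KO libraries were above all WT libraries, at a log2 fold change of 3.34 ± 0.72 (adjusted p = 0.00329).

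Orm1 and Orm2 encode forms of orosomucoid (alpha-1-acid glycoprotein), a plasma carrier of the lipocalin family. They lie 14285 bases apart on the plus strand of chromosome 4, Orm1 at 63344560 to 63348163 and Orm2 at 63362449 to 63365878, and their transcripts are 91.0% identical. Orm1 was the abundant form, at 701.0 to 1008 CPM in WT and 445.6 to 917.0 CPM in KO. Orm2 was at 10.9, 10, 6.84, 13.7 and 5.00 CPM in WT mice 1 to 5 and at 90.2, 74.2, 60.2, 41.0 and 26.2 CPM in KO mice 7, 8, 10, 11 and 12. These ranges did not overlap (log2 fold change 2.65 ± 0.40, adjusted p = 0.000132). Orm1 did not pass the test (log2 fold change -0.38 ± 0.32, adjusted p = 0.448). Per kilobase of transcript, Orm2 was 0.00713 to 0.0167 of Orm1 in WT and 0.0588 to 0.124 of Orm1 in KO at baseline. The longest run shared by these transcripts is 141 bases and only uniquely mapped reads were counted, so this split is uncertain too.

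The other members differed by less. Hp encodes haptoglobin, which binds free haemoglobin, and had a log2 difference of 0.01 ± 0.28 at baseline. For Hpx, which encodes the haem scavenger hemopexin, the difference was 0.36 ± 0.32. Fgb encodes the fibrinogen beta chain (-0.46 ± 0.38), and Apcs encodes serum amyloid P component, a pentraxin (-0.49 ± 0.27). Saa3, a serum amyloid A gene made in several tissues besides the liver, was at 2.25 to 4.94 CPM in WT and 3.43 to 10.2 CPM in KO. The adjusted p of these 5 genes was 0.226 or higher. With library size alone as the scale, Hpx passed (0.85, adjusted p = 0.0451).

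In WT liver, 8 of the 10 genes rose after PHx, against 11.4% of all genes called higher. Saa3 and Fgb did not pass the test, and both passed with library size alone as the scale (adjusted p = 0.0344 and 0.0138). For 7 of the 10 every library after PHx was above every baseline library, against 6.91% of all genes. The summed share of the 10 genes went from 1.05% to 1.17% of library counts at baseline to 2.85% to 4.76% after PHx.

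Lcn2 had the highest fold change of the 10. It reached 1999, 3928, 3073, 3170 and 419.5 CPM in WT mice 1 to 5 after PHx, at a log2 change of 8.96 ± 0.92 (adjusted p = 5.87e-06). WT mouse 5 was the lowest of these libraries and still far above the baseline maximum. Saa2 reached 6881, 3394, 3156, 1417 and 1791 CPM in the same mice (log2 change 7.86 ± 0.84, adjusted p = 9e-06).

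Saa1 was at 6467, 3319, 3314, 1406 and 1937 CPM (log2 change 6.34 ± 0.76, adjusted p = 2.74e-05). For both genes the single 30 h library was the highest and the 48 h libraries the lowest. Per kilobase of transcript, Saa2 was 0.259 to 0.386 of Saa1 in WT at baseline and 0.864 to 0.994 of Saa1 after PHx, and these ranges did not overlap. In KO the ratio went from 0.513 to 0.628 at baseline to 0.903 to 1.01 after PHx.

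Orm2 rose in WT to 239.3, 119.8, 317.2, 80.3 and 127.5 CPM (log2 change 4.25 ± 0.43, adjusted p = 5.55e-06). Orm1 rose to 2728, 4097, 3998, 4875 and 1842 CPM (2.02 ± 0.33, adjusted p = 0.000483). The order of the mice was not shared: mouse 4 was the highest for Orm1 and the lowest for Orm2.

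Apcs, on chromosome 1 at 172893961 to 172895041 (minus strand), went from 65.1 to 90.6 CPM at baseline to 323.3, 304.4, 438.7, 269.7 and 163.7 CPM in WT mice 1 to 5 (log2 change 1.98 ± 0.28, adjusted p = 0.00011). Hp, on chromosome 8 at 109575128 to 109579172 (minus strand), went from 2378 to 3029 CPM at baseline to 9451, 4703, 10711, 5131 and 4478 CPM (1.43 ± 0.29, adjusted p = 0.00233). Neither gene's groups overlapped. Hpx, on chromosome 7 at 105591613 to 105600137 (minus strand), was at 3467 to 4346 CPM at baseline and at 11154, 4276, 12438, 4222 and 9195 CPM after PHx (1.06 ± 0.33, adjusted p = 0.0274). WT mice 2 and 4 stayed within the baseline range of the group. The Hpx call was lost without baseline mouse 3, 4 or 5, without mouse 1 or 3 after PHx (0.87, adjusted p = 0.0753, without mouse 3), and when the 9 mice numbered at both stages were paired (0.80, adjusted p = 0.214). The same 9 mice without pairing did not give the call either (0.95, adjusted p = 0.0901).

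Fgb, on chromosome 3 at 83040141 to 83049863 (minus strand), was at 6366 to 7302 CPM in WT at baseline and at 5700, 13994, 11767, 24622 and 6785 CPM after PHx. WT mice 1 and 5 lay below or within the baseline range, mice 2, 3 and 4 above it (log2 change 0.85 ± 0.38, adjusted p = 0.117). Saa3, on chromosome 7 at 46711998 to 46715700 (minus strand), was at 16.1, 2.83, 24.3, 1.45 and 4.87 CPM after PHx (1.46 ± 0.62, adjusted p = 0.102), and passed without mouse 4 (1.79, adjusted p = 0.04). Over the fits without 1 library its change ran from 0.81 to 1.79, with adjusted p up to 0.362.

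In KO liver, 5 of the 10 genes rose after PHx: Saa1, Saa2, Lcn2, Orm1 and Orm2. The background was larger here, with 17.4% of all genes called higher. Only Lcn2 and Orm2 had all libraries after PHx above all baseline libraries, against 6.18% of all genes. The share of the 10 genes was 1.09% to 2.04% of counts at baseline and 1.84% to 4.02% after PHx.

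After PHx, Lcn2 was at 3373, 1429, 622.6, 465.5 and 1905 CPM in KO mice 7, 8, 10, 11 and 12 (log2 change 4.93 ± 0.76, adjusted p = 0.000519). Saa2 was at 549.1, 194.2, 1634, 482.6 and 560.2 CPM in these mice (2.74 ± 0.67, adjusted p = 0.00621), and Saa1 at 533.2, 200.9, 1686, 495.3 and 516.2 CPM (2.13 ± 0.62, adjusted p = 0.0168). KO mouse 10 was the highest for both. In KO mouse 8 both genes were lower after PHx than in its own baseline library, the single KO mouse of 5 with this order.

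Orm2 was at 261.7, 126.2, 241.8, 149.8 and 195.2 CPM (log2 change 1.74 ± 0.38, adjusted p = 0.00364) and Orm1 at 3209, 1456, 1223, 826.7 and 2310 CPM (1.45 ± 0.32, adjusted p = 0.004). Orm1 in KO mouse 11 stayed within the baseline range. Apcs did not pass the test, at 64.9, 57.7, 65.1, 56.3 and 28.1 CPM after PHx and 48.2, 87.8, 32.4, 52.6 and 48.8 CPM at baseline (log2 change 0.01 ± 0.27, adjusted p = 0.975). For Hp the log2 change was 0.12 ± 0.28, for Hpx -0.32 ± 0.32 and for Saa3 -0.47 ± 0.61, none past the test. Fgb was at 16038, 6772, 6064, 5110 and 15188 CPM (0.96 ± 0.38, adjusted p = 0.0617) and passed without KO mouse 10 (1.08, adjusted p = 0.0338) or 11 (1.10, adjusted p = 0.0394) after PHx. Over the fits without 1 library Fgb ran from 0.73 to 1.10, with adjusted p up to 0.172. DESeq2 called it too (0.97, adjusted p = 0.0286), as did edgeR scaled by library size alone (1.14, adjusted p = 0.016).

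**Figure D2:**
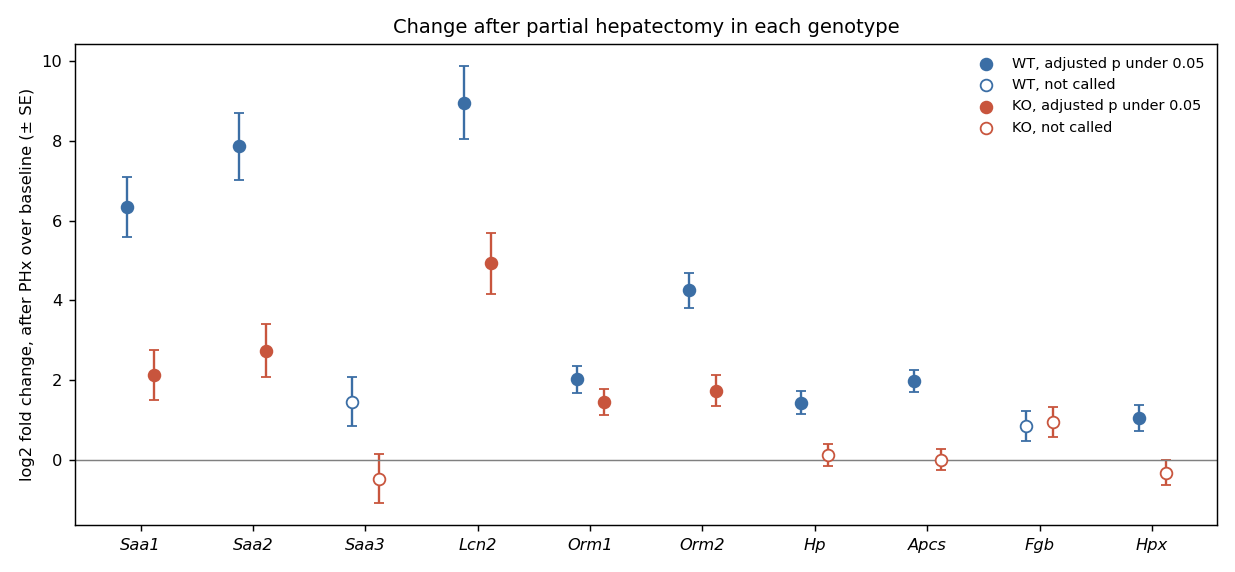
Log2 fold change of each gene after PHx over baseline in WT (blue) and KO (red), with its SE from the fit over all 20 libraries. Filled points have an adjusted p under 0.05. The WT point lies above the KO point for 9 of the 10 genes, and the KO points of Hp, Apcs, Hpx and Saa3 lie near or below 0.

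The difference between the responses was tested as an interaction of genotype and stage. It was called for 4 of the 10 genes, all with the lower response in KO, while 0.225% of all genes were called in that direction and 0.389% (57 genes) in either. The KO response minus the WT response was -5.13 ± 0.94 for Saa2 (adjusted p = 0.0176), -4.22 ± 0.88 for Saa1 (adjusted p = 0.0417), -2.51 ± 0.54 for Orm2 (adjusted p = 0.0454) and -1.97 ± 0.38 for Apcs (adjusted p = 0.0264). Lcn2 had a difference of -4.03 ± 0.96 that did not pass (adjusted p = 0.067). For Orm1 (-0.58 ± 0.45) and Fgb (0.10 ± 0.53) the estimates were nearest to 0. The differences of Hp (-1.31 ± 0.40), Hpx (-1.38 ± 0.46) and Saa3 (-1.93 ± 0.87) did not pass.

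The 4 genes differed in their levels. Saa1, Saa2 and Orm2 were called higher in KO at baseline, with overlapping groups for Saa1, and Apcs was not. After PHx, Saa1, Saa2 and Apcs were called lower in KO than in WT and Orm2 was not. By DESeq2 the adjusted p of these 4 was 2.48e-06 for Saa2, 0.000156 for Saa1, 0.000193 for Apcs and 0.00106 for Orm2, where DESeq2 called 376 genes in all. With the 9 mice numbered at both stages paired as a block, all 4 were lost: Saa2 had a difference of -4.48 (adjusted p = 0.234), Saa1 -3.78 (0.289), Orm2 -2.27 (0.279) and Apcs -1.83 (0.178). The same 9 mice without the block, a fit added after the data were seen, gave 0 calls as well (with either fit, 7 of the 10 genes had an unadjusted p under 0.05, each with the lower response in KO). Of 20 fits that each left out 1 library, Saa2 kept its call in 20, Apcs in 16, Saa1 in 6 and Orm2 in 6, and 1 to 6 of the 10 genes were called, with 6 where KO mouse 10 after PHx was left out.

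After PHx, 6 of the 10 genes were lower in KO than in WT and none was higher (0 also at an unadjusted p under 0.05 and with DESeq2), against 8.20% of all genes called lower. The median log2 difference of the 10 was -1.09, beside -0.01 for all genes. Apcs had the smallest adjusted p, at 28.1 to 65.1 CPM in KO against 163.7 to 438.7 CPM in WT (log2 fold change -2.46 ± 0.28, adjusted p = 6.14e-06). Hp was at 3396, 1706, 3558, 1965 and 3347 CPM in KO mice 7, 8, 10, 11 and 12, each below the WT minimum of 4478 CPM (-1.30 ± 0.29, adjusted p = 0.00276). These 2 genes were the members with no overlap between genotypes, which held in this direction for 2.97% of all genes.

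Saa2 (log2 fold change -2.28 ± 0.65, adjusted p = 0.0155) and Saa1 (-2.26 ± 0.63, adjusted p = 0.0127) were lower in 4 of the 5 KO libraries than in any WT library, and KO mouse 10 lay within the WT range. Hpx was at 4291, 2446, 7226, 2652 and 3867 CPM in KO (-1.01 ± 0.33, adjusted p = 0.0291). The Orm1 difference was -0.96 ± 0.32 (adjusted p = 0.0351). The calls of Orm1 and Hpx were each lost in 6 of the 10 fits without 1 library: for Orm1 without WT mouse 2, 3 or 4 or KO mouse 8, 10 or 11, with adjusted p up to 0.0793, and for Hpx without WT mouse 1, 3 or 5 or KO mouse 7, 8 or 11, with adjusted p up to 0.0852. In a fit of the 10 libraries after PHx alone, Orm1 (adjusted p = 0.176), Hpx (0.178) and Hp (0.0511) were not called. With library size alone Orm1 (-0.61, adjusted p = 0.13) and Hpx (-0.70, adjusted p = 0.0886) were not called, and with no filter on low counts Hpx was not (adjusted p = 0.0574).

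Lcn2, Orm2, Fgb and Saa3 did not pass the test between genotypes after PHx. Lcn2 had a log2 difference of -0.69 ± 0.65, Fgb one of -0.35 ± 0.37 and Orm2 one of 0.14 ± 0.37. For Orm2, then, the call at baseline was not seen after PHx, where KO livers had 126.2 to 261.7 CPM and WT livers 80.3 to 317.2 CPM. Per kilobase of transcript, the highest mean levels in WT after PHx were those of Hpx (5508 CPM per kb), Saa1 (5400), Hp (5126) and Saa2 (5104). In KO after PHx they were those of Hpx (2733), Fgb (2581), Orm1 (2329) and Hp (2078), and Apcs was at 56.1.

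**Figure D3:**
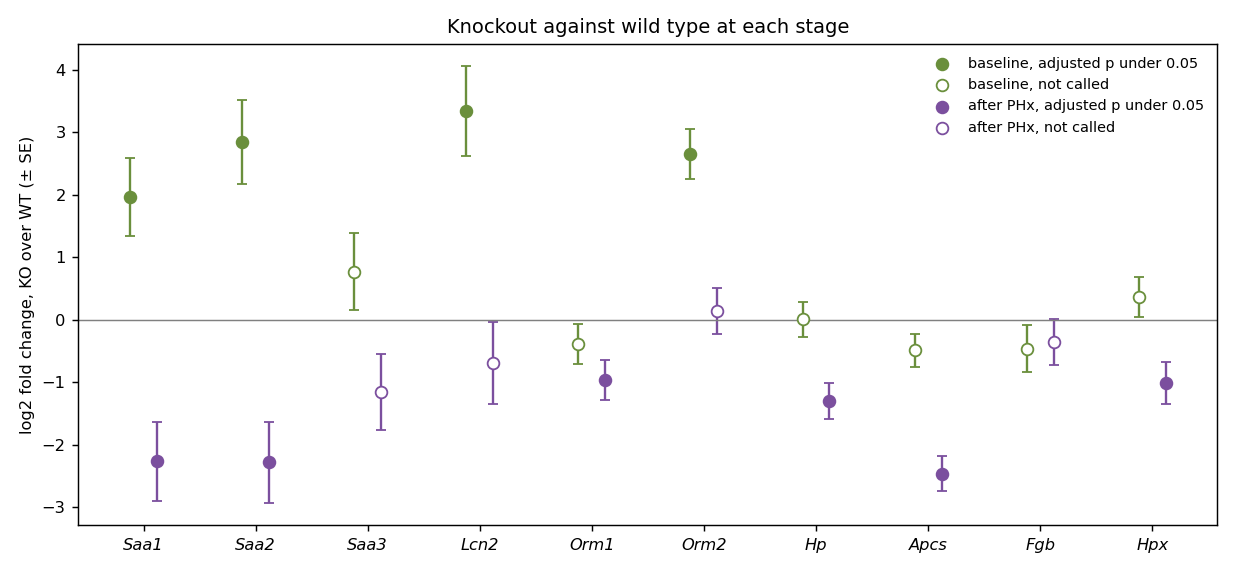
Log2 fold change of KO over WT for each gene at baseline (green) and after PHx (purple), with its SE. Filled points have an adjusted p under 0.05. Saa1, Saa2, Lcn2 and Orm2 lie above 0 at baseline, and Saa1, Saa2, Orm1, Hp, Apcs and Hpx are filled below 0 after PHx.

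Times were compared in a fit of 8 groups, one per genotype and time, in which 7 of the 10 genes were called higher in WT at 40 h (8.22% of all genes) and 7 at 48 h (9.59%), with 2 libraries at each of these times. In KO 4 were called higher at 40 h (5.51% of all genes) and 4 at 48 h (21.9%). Saa1, Saa2, Lcn2, Orm1, Orm2 and Apcs were called at both times in WT, Hp at 40 h and Fgb at 48 h. The Fgb call, at a log2 change of 1.16 (adjusted p = 0.0483), was lost in 6 of 7 fits without 1 library, with 0.03 (adjusted p = 1) without WT mouse 4. Hp at 40 h was lost without WT mouse 3 (0.87, adjusted p = 0.151) and Orm1 at 48 h without WT mouse 4 (1.16, adjusted p = 0.0679). DESeq2 also called Saa3 (adjusted p = 0.0389) and Hpx (0.0434) at 40 h and Hp (0.0381) at 48 h in WT. Scaling by library size alone added Saa3, Fgb and Hpx at 40 h and Hp and Hpx at 48 h in WT, and Saa2 at 48 h in KO.

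Saa1 in KO had a log2 change of 2.79 ± 0.67 at 40 h (adjusted p = 0.0193) and 1.19 ± 0.69 at 48 h (adjusted p = 0.177). The first fell to 1.64 without KO mouse 10 after PHx. Over the fits without 1 library the second ran from 0.33 to 2.00, and it passed without KO mouse 8 at baseline (2.00, adjusted p = 0.0133). Lcn2 in KO had 3.41 ± 0.75 at 40 h (adjusted p = 0.0117) and 5.52 ± 0.79 at 48 h (adjusted p = 0.000136), and the 40 h call was lost without KO mouse 11 (adjusted p = 0.0536). The change between the times was not tested.

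KO was lower than WT at 40 h for Orm1, Hp and Apcs, against 3.64% of all genes called lower, and at 48 h for Apcs, against 9.11%. The Apcs difference was -2.61 ± 0.37 at 40 h (adjusted p = 0.000888) and -1.84 ± 0.36 at 48 h (adjusted p = 0.00261). Orm1 had -1.98 ± 0.45 at 40 h (adjusted p = 0.0127) and -0.55 ± 0.43 at 48 h (adjusted p = 0.381). Over the fits without 1 library, its 48 h value ran from -1.22 to 0.28. Without KO mouse 11, the calls of Orm1 (-1.72, adjusted p = 0.11) and Hp (-1.11, adjusted p = 0.236) at 40 h were lost. The Hp call was also lost without WT mouse 3 (-0.76, adjusted p = 0.266), and that of Orm1 without WT mouse 2 (-1.97, adjusted p = 0.079). With library size alone Hp was not called either (-1.05, adjusted p = 0.0669). With no filter on low counts, Lcn2 was also called lower at 40 h (-2.67, adjusted p = 0.0206), and Saa1 (-2.30, adjusted p = 0.0209) and Saa2 (-2.22, adjusted p = 0.0328) at 48 h. In KO against its own baseline, 1 member was called at 40 h without KO mouse 10, 2 without KO mouse 11, and at 48 h 1 without KO mouse 7 after PHx and 6 without KO mouse 8 at baseline.

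Livers of 1 group differed widely after PHx, and the members did not follow 1 order. In WT mice 2 and 4, Fgb was high (13994 and 24622 CPM) while Hpx was at its baseline level (4276 and 4222 CPM). WT mice 1 and 5 had the opposite pattern, with Fgb at 5700 and 6785 CPM and Hpx at 11154 and 9195 CPM, and mouse 3 was high for both. In KO mice 7 and 12, Fgb was at 16038 and 15188 CPM and Hpx at 4291 and 3867 CPM, while KO mouse 10 had the highest Hpx of the group (7226 CPM) and 6064 CPM of Fgb. KO mice 8 and 11 had the lowest Hpx of the group (2446 and 2652 CPM) with Fgb at 6772 and 5110 CPM, so the opposed order of the WT livers was not seen across the KO group.

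Per kilobase, Fgb over Hpx spanned 0.201 to 2.29 in WT after PHx and 0.33 to 1.55 in KO after PHx, against 0.626 to 0.792 and 0.315 to 0.448 at baseline. The WT libraries with Fgb above and Hpx within the baseline range came from 40 h (mouse 2) and 48 h (mouse 4). The KO libraries with the highest Fgb, whose Hpx was neither the highest nor the lowest of the group, came from 30 h (mouse 12) and 48 h (mouse 7). Orm1 was also highest in WT mouse 4 and in KO mouse 7. Saa1 and Saa2 did not share this pattern, and in KO the highest library for both was that of mouse 10.

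**Figure D4:**
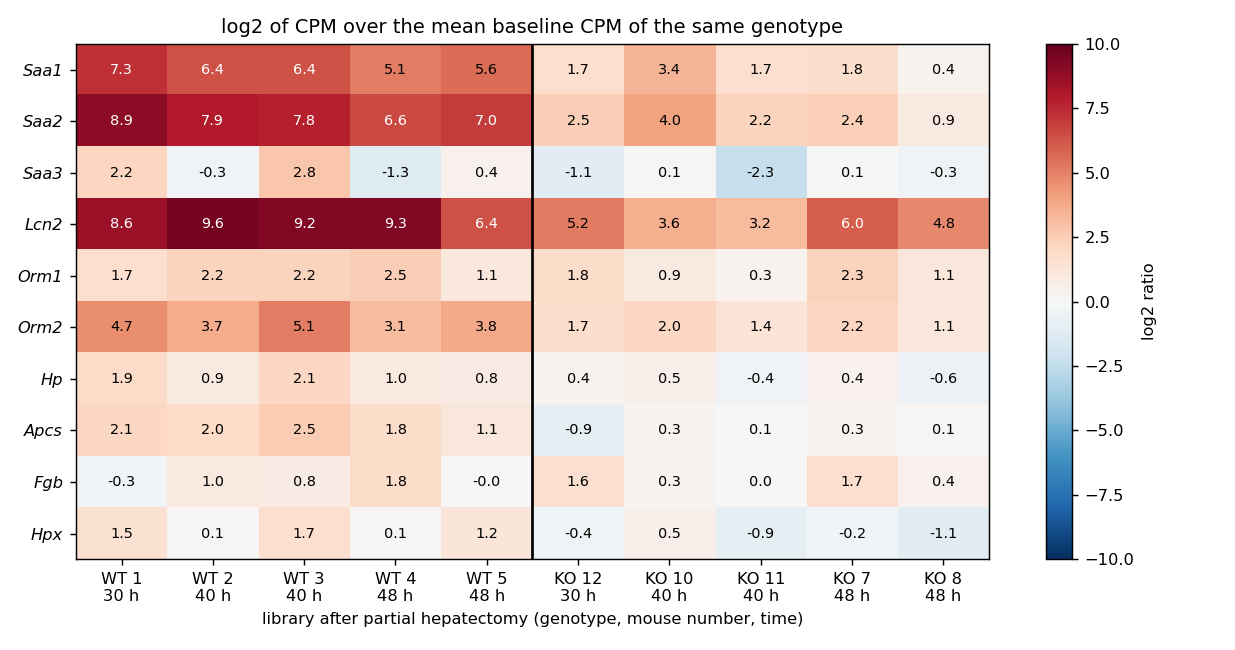
Log2 ratio of the CPM of each gene (rows) in each library after PHx (columns, by genotype and then time) to the mean baseline CPM of the same genotype. Red is above and blue below the baseline mean, and the cells print the ratio. Saa1 runs from 5.11 to 7.32 in WT and from 0.35 to 3.42 in KO, and Apcs from 1.11 to 2.53 in WT and from -0.94 to 0.27 in KO.

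The genes outside the 10 most like each member were found by the mean absolute difference of centred log2(CPM + 1) over the 20 libraries. For Fgb they were the other fibrinogen chains, Fgg (0.09) and Fga (0.11), and then Atl2 (0.22), where the profile of Fgb itself deviated from its mean by 0.53. For Orm1 the nearest was Lrg1, leucine-rich alpha-2-glycoprotein (0.29, own deviation 0.89). The nearest to Hpx was Ang (0.24, own deviation 0.46), to Hp Qsox1 (0.33, own deviation 0.54), as near as the member Hpx (0.33), and to Orm2 Syt12 (0.44, own deviation 1.53). Saa1 and Saa2 were nearest to each other (0.53), and outside the list Syt12 was nearest to Saa1 (1.17, own deviation 2.24) and Apoa4 to Saa2 (1.16, own deviation 2.72). Lcn2 was nearest to Mt2, metallothionein-2 (1.08, own deviation 3.38), Apcs to the pseudogene Gtpbp4-ps1 (0.39, own deviation 0.86) and Saa3 to Fkbp11 (0.50, own deviation 0.66), though the member Hpx was nearer to it (0.44). These are descriptions over libraries that share groups.

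Other positive acute phase genes moved in part with the members. Of 28 such genes, 11 rose and 1 fell after PHx in WT, against 11.4% of all genes called higher and 8.68% lower. In KO 9 rose and 4 fell, against 17.4% and 12.1%. The response differed between genotypes for 0 of 28 by the edgeR test or by DESeq2, which called 57 and 376 of the 14661 genes. At an unadjusted p under 0.05 it differed for 2 of 28, both lower in KO, beside 1958 of the 14661 by edgeR. Mt2 had a log2 change of 7.23 ± 1.2 in WT (adjusted p = 0.00055) and 5.53 ± 1.11 in KO (adjusted p = 0.00222), and Cd14, a lipopolysaccharide co-receptor, 4.94 ± 1.26 (adjusted p = 0.0102) and 3.56 ± 1.14 (adjusted p = 0.0258). The Cd14 call in KO was lost with the 9 mice paired (2.73, adjusted p = 0.0633). Between genotypes after PHx, 5 were lower in KO (Itih3, Serpina1a, Serpina1b, Serpina1e and Fgl1) and 1 was higher, A2m, which encodes the protease inhibitor alpha-2-macroglobulin. A2m was at 0 to 0.463 CPM in all 10 WT libraries and at 1.5 to 60.0 CPM in all 10 KO libraries. Of 10 negative acute phase genes, whose products usually decline, 4 fell in WT (Ttr, Fetub, Serpina6 and Pon1) and 3 in KO (Ttr, Fetub and Pon1), against 8.68% and 12.1% of all genes called lower. With the 9 mice paired, Serpina6 (-2.17, adjusted p = 0.0492) and Lcat (-0.74, adjusted p = 0.0395) also passed in KO, which made 5 of 10.

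Most inducing cytokine ligands were scarce in these livers. Of 11 ligand genes, 5 passed the filter on low counts, and Il6 and Tnf did not (mean Il6 at most 0.164 CPM in any group). At baseline Lif (log2 fold change 5.23 ± 1.12, adjusted p = 0.0033), Clcf1 (3.19 ± 0.77, adjusted p = 0.00738) and Il1a (1.41 ± 0.39, adjusted p = 0.018) were higher in KO. The first pair encodes cytokines of the interleukin-6 family. Clcf1 rose after PHx in both genotypes, with a log2 change of 4.56 ± 0.80 in WT and 1.83 ± 0.68 in KO (adjusted p = 0.0483). The KO call was lost with the 9 mice paired (1.74, adjusted p = 0.0845), and was made with the same mice without pairing (1.82, adjusted p = 0.0353). Il1b fell in KO (-2.43 ± 0.63, adjusted p = 0.0086) and did not pass in WT (-1.57 ± 0.63, adjusted p = 0.0828).

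Among 10 cytokine receptor genes, 4 rose and 3 fell after PHx in each genotype, against 11.4% of all genes called higher and 8.68% lower in WT, and 17.4% and 12.1% in KO. With the 9 mice paired, Tnfrsf1b was no longer called higher in KO (adjusted p = 0.0597) and Il22ra1 was (0.0455). The same mice without pairing gave both changes as well (adjusted p = 0.0521 and 0.0221). Osmr, the oncostatin M receptor, rose by 2.00 ± 0.49 in WT and 2.36 ± 0.49 in KO on the log2 scale, and was higher in KO after PHx (1.42 ± 0.47, adjusted p = 0.0339). Lifr, the leukaemia inhibitory factor receptor, was lower in KO at baseline (-2.22 ± 0.45, adjusted p = 0.00204) and fell after PHx in both genotypes (-2.41 ± 0.45 in WT, -1.34 ± 0.44 in KO). Il6ra and Il6st, which form the interleukin-6 receptor, passed in none of these 4 comparisons.

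Of 16 signal transducers and transcription factors, Stat3 rose by 1.03 ± 0.26 in WT and 0.98 ± 0.26 in KO, and Cebpd by 1.69 ± 0.55 (adjusted p = 0.0357) and 1.62 ± 0.54 (adjusted p = 0.0319). With the 9 mice paired, the Cebpd calls were lost in WT (1.57, adjusted p = 0.0878) and in KO (1.34, adjusted p = 0.0663), and both were made with the same mice without pairing (adjusted p = 0.043 and 0.0303). Cebpa, a C/EBP factor of differentiated hepatocytes, fell in both (-1.77 ± 0.25 and -1.22 ± 0.25). Cebpb passed in none of the 4 comparisons, nor did Nfkbia, an inhibitor of NF-kB. At baseline Relb (1.90 ± 0.42, adjusted p = 0.00393) and Nfkb2 (1.19 ± 0.25, adjusted p = 0.00319), subunits of NF-kB, were higher in KO.

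The feedback inhibitor of STAT3 signalling, Socs3, was higher in KO at baseline, at 12.2 to 73.6 CPM against 2.57 to 10.5 CPM in WT (log2 fold change 2.44 ± 0.57, adjusted p = 0.0063). It rose in WT after PHx (2.57 ± 0.58, adjusted p = 0.00461) and did not pass in KO (0.89 ± 0.54, adjusted p = 0.214). Tnfaip3, an inhibitor of NF-kB signalling, was also higher in KO at baseline (2.46 ± 0.64) and rose in WT (2.27 ± 0.64), and so did Nfkbiz (1.54 ± 0.38 and 1.68 ± 0.38). Of the 12 feedback targets, 3 were called higher in KO at baseline (11.1% of all genes). After PHx 4 rose and 1 fell in WT (11.4% and 8.68%), and 2 rose and 1 fell in KO (17.4% and 12.1%). Zfp36 fell in both genotypes, and Il4ra and Il1r2 rose in KO. The summed level of the 12 was 421.2 to 748.5 CPM in WT at baseline and 296.8 to 773.7 CPM after PHx. In KO it was 644.2 to 1216 and 385.3 to 1087 CPM. The difference of responses was called for 0 of the 16 factors, 12 feedback targets and 10 receptors by edgeR (4, 4 and 0 at an unadjusted p under 0.05), and by DESeq2 for 1, 1 and 0. Of all 14661 genes, edgeR called 57 (1958 at an unadjusted p under 0.05) and DESeq2 376. At such shares, 0 calls in short lists do not show that the responses were alike.

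Markers of other cell types moved with these groups. Neutrophils and macrophages also express Lcn2 and Saa3, and in bulk RNA fewer cells of a type and less RNA per cell cannot be told apart. The summed level of 12 neutrophil markers was 1.19 to 2.20 CPM in WT at baseline, 2.09 to 52.3 in WT after PHx, 4.08 to 12.4 in KO at baseline and 6.86 to 87.8 in KO after PHx. Ly6g was at 0 in both baseline groups, Camp, Ngp and Mpo in WT at baseline and Elane in KO at baseline. Of the 12 neutrophil markers, 7 passed the filter on low counts in the fit of 4 groups. At baseline 2 were called higher in KO (S100a8 and Csf3r), against 11.1% of all genes. After PHx 5 rose in WT (11.4% of all genes) and 1 in KO (17.4%), with 7 and 6 at an unadjusted p under 0.05. At 48 h 5 were called higher in WT (9.59% of all genes) and 6 in KO (21.9%), and at 40 h 6 in WT (8.22%) and 0 in KO (5.51%; 0 also with DESeq2, and 1 with edgeR at an unadjusted p under 0.05).

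The summed level of 12 macrophage and Kupffer cell markers was 215.1 to 368.1 CPM in WT and 557.6 to 730.2 CPM in KO at baseline, with 6 of 12 called higher in KO, against 11.1% of all genes. After PHx it was 90.2 to 448.3 CPM in WT and 149.8 to 489.6 CPM in KO, with 3 of 12 called higher, against 2342 of the 14661 genes tested, and none of the 12 was at 0 in a whole group. The 10 hepatocyte markers summed to 134201 to 154888 CPM in WT and 80952 to 109624 CPM in KO at baseline, and to 70807 to 108813 and 39555 to 96184 CPM after PHx, with 3 of 10 called lower in KO at baseline (4.89% of all genes) and 1 after PHx (8.20%). The 6 cholangiocyte markers summed to 23.3 to 58.2 CPM in WT and 55.5 to 358.4 CPM in KO at baseline, and to 21 to 238.6 and 119.8 to 561.2 CPM after PHx. In KO against WT, 1 of these 6 was called higher at baseline (Spp1) and 4 after PHx (Krt19, Krt7, Epcam and Sox9), against 1632 and 2342 of the 14661 genes tested. DESeq2 called 4 at baseline and 5 after PHx. After PHx against baseline, 3 rose in KO (Krt19, Krt7 and Epcam), against 17.4% of all genes, and 0 in WT, against 11.4%. In WT 2 had an unadjusted p under 0.05 and DESeq2 called 1. With the 9 mice paired 2 rose in KO, without Krt19 (1.85, adjusted p = 0.0504), and 1 in WT, Spp1 (1.72, adjusted p = 0.0293). The same mice without pairing kept Krt19 in KO (2.59, adjusted p = 0.00687) and also gave Spp1 in WT (2.13, adjusted p = 0.0419). The difference of responses was called for 0 of the 6 by edgeR or DESeq2 (1 at an unadjusted p under 0.05), against 57 and 376 of the 14661 genes. The part of these cells in the members' differences was not tested.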

How the data were processed

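The members and gene lists were chosen with earlier results of these data known. The authors deposited unnormalised counts, whole numbers of reads for each Ensembl gene, in separate files for the libraries. Per the design text, RNA with an integrity number above 8 went into TruSeq libraries sequenced paired-end on a NovaSeq 6000, reads were trimmed with fastp 0.20.0 and aligned to mm10, and uniquely mapped reads were counted. The submitters' processing notes name FastQC 0.11.5 and, in place of fastp, Trimmomatic 0.36. The aligner, counting program, strand setting and annotation release are not given in the sources used here. GENCODE M21 held 46091 of the 46603 identifiers, and none of the 10 members overlaps another gene in it. Totals were 21634890 to 30461351 counts per library.

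Counts were tested with edgeR 4.0.16 in R 4.3.3 (quasi-likelihood test, two-sided, TMM, filterByExpr), in 1 fit of 4 groups and 1 of 8 groups of genotype by time (17241 genes). SEs are the log2 fold change over the square root of F. In the second fit each genotype has 1 library at 30 h, which gives no spread of its own. The script was tested on simulated data. DESeq2 1.42.0, other scalings and filters, a time term, fits without 1 library and a replicate block were alternatives. Named genes are the members, 12 preset genes and, in each list and contrast, up to 3 called genes with the largest change at a mean of at least 1 CPM.

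The labels say that each mouse gave both samples, and the titles number 9 mice at both stages (that of WT baseline replicate 1 has none). Residuals of samples with the same number correlated by -0.05 to 0.15 (mean 0.05), and of different numbers by -0.23 to 0.26 (mean -0.01). The pairing rests on the labels.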

Additional observations from a re-analysis of the deposited data

Results flagged for a closer look

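In 40 groups of 5 libraries (10 genes in 4 groups), 1 library stood apart from the others of its group in 4, by Dixon's ratio of the gap to the range at the 95% level. Chance flags about 1 group in 20. KO mouse 10 after PHx (40 h) had 1686 CPM of Saa1, where the other 4 KO livers had 200.9 to 533.2, and 1634 CPM of Saa2, where they had 194.2 to 560.2. This neighbouring pair shares most of its transcript sequence, so the pair is not 2 independent observations. WT mouse 4 at baseline had 12.7 CPM of Lcn2 against 2.47 to 3.53 in the other 4. KO mouse 12 after PHx, the only KO library of 30 h, had 28.1 CPM of Apcs against 56.3 to 65.1.

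The response to PHx differed between genotypes by the interaction test for 4 members, with a KO minus WT difference on the log2 scale of -4.22 for Saa1, -5.13 for Saa2, -2.51 for Orm2 and -1.97 for Apcs. Causes were not tested.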

How the results depend on the processing

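Of 1500 results for single members under alternatives, 1371 kept their side of the threshold, 96 lost the call and 33 gained it. The sign changed in 49, of which 0 were called under either setting. The count of members called stayed within 1.5 times in 131 of 150 cases. It was 3 in place of 6 after PHx between genotypes when only the samples compared entered the fit, and 3 in place of 1 at 48 h with no filter. For the difference of responses it was 0 in place of 4 with the replicate block, and 0 for the same 9 mice without it. Over all genes, 34 were called with these mice and no block and 7 with the block, in place of 57. Saa2 had an adjusted p of 0.0513 (edgeR) without the block and 0.234 with it. The parts of the block and of the smaller set of mice were not separated. The block changed 1 other call of a member, that of Hpx in WT, which the same 9 mice without the block also did not give. Leaving out 1 library gave 1 to 6 members for that difference, 1 to 3 for KO against WT at 40 h, 1 to 4 for KO at 40 h against baseline and 1 to 6 for KO at 48 h against baseline. Without KO mouse 10 after PHx, 708 genes in all had a called difference of responses, with Lcn2 (-3.83, adjusted p = 0.0339) and Hpx (-1.69, adjusted p = 0.0332) among the members. DESeq2 on all libraries called 376 genes and 6 members, with Lcn2 (-4.07, adjusted p = 0.00106) and Hp (-1.32, adjusted p = 0.044) added.

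With library size alone, the genes called higher and lower in KO were 3524 and 113 at baseline (1632 and 717 with TMM) and 3892 and 297 after PHx (2342 and 1202), and after PHx against baseline 3796 and 582 in WT (1677 and 1273) and 4051 and 963 in KO (2556 and 1770). Without WT mouse 4 after PHx, 5 results at 48 h reversed for genes outside the members. Over the fits without 1 library, KO against WT ran from -2.45 to 3.61 for Mt1 and from -0.99 to 1.37 for Il1r1, and 48 h against baseline in WT from -0.21 to 6.62 for Cd14, -2.34 to 6.37 for Il1r2 and -0.05 to 2.28 for Cd68. The cause was not tested. With 5 mice per group, the 2 libraries per genotype at 40 h and 48 h limit the precision by time.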

Other observations

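Acute phase genes outside the 10 members also split after PHx. Saa4, a serum amyloid A gene expressed in unstimulated liver, was at 284.6 to 401.4 CPM in WT at baseline and at 258.1, 42.6, 307.4, 41.6 and 180.5 CPM in WT mice 1 to 5 after PHx. WT mice 2 and 4, with the lowest Saa4, were those with Fgb above and Hpx within the baseline range. Crp, which encodes C-reactive protein, a minor acute phase protein in mice, was lowest in the same pair, at 47.7 and 144.5 CPM against 277.9 to 451.2 CPM in mice 1, 3 and 5. These genes were singled out after their values were seen. Serpina1e, an alpha-1-antitrypsin gene, was at 10838 to 15948 CPM in WT and 1284 to 4372 CPM in KO at baseline, and at 2979 to 5592 and 213.8 to 1249 CPM after PHx.

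Of 6 adipocyte markers 2 passed the filter on low counts, and both rose after PHx in each genotype: Cidec, which coats lipid droplets (log2 change 8.11 ± 1.26 in WT, adjusted p = 0.000321, and 7.46 ± 1.21 in KO, adjusted p = 0.000713), and Fabp4, a fatty acid carrier. Adipoq and Cfd, made by adipocytes, were at 0 in KO after PHx, and Lep was at 0 in all 4 groups. The 6 markers of stellate cells and fibroblasts summed to 139.0 to 218.8 CPM in WT and 356.2 to 396.0 CPM in KO at baseline, with 4 called higher in KO (11.1% of all genes). Of 6 endothelial markers, 1 (Cdh5) was called higher in KO at each stage, a share near that of all genes (1632 of 14661 at baseline and 2342 after PHx).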
